A study of Mus musculus with 20 samples.

Results

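GATA4, GATA6, FOXA2, SOX17, SOX7, T (Brachyury), EOMES, MIXL1, GSC and CDX2 are transcription factors that specify endoderm, mesoderm and trophoblast. The chromatin around their 10 genes was followed by ATAC-seq while mouse embryonic fibroblasts (MEFs) were reprogrammed towards pluripotency. The 10 genes were taken from 21938 protein-coding genes for their known roles. Every ATAC-seq peak within 20 kb of a gene span was assigned to that gene, which gave 116 of the 335858 regions of the whole series (590 peaks). A region is a stretch covered by overlapping peaks of any library, and a library with a peak there counts as open at that region.

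ATAC-seq marks accessible DNA by the cuts of the Tn5 transposase. Genes of lineages that a cell does not enter are known to be held silent in pluripotent cells by Polycomb at promoters that stay accessible, while their enhancers open as a lineage forms. GATA4, GATA6, FOXA2, SOX17 and SOX7 act in primitive or definitive endoderm. T, EOMES, MIXL1 and GSC act in the primitive streak and its mesendoderm, and CDX2 acts in trophectoderm and in posterior tissue of the embryo. NANOG and OCT4, the factors delivered here, maintain the pluripotent state, and NANOG is known to repress Gata6.

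The samples were 1 library of MEFs, 3 libraries of embryonic stem cells (ESCs) and 16 libraries of MEFs transduced with retroviruses for Oct4 together with Nanog or with NanogN70, collected on 8 days from day 0 to day 12 (days 0, 1 and 3, then days 5, 7 and 8, then days 10 and 12), with 1 library per day and path. NanogN70, named NanogBiD in the study, is NANOG whose N-terminus carries the N-terminal 70 amino acids of SS18, a part that binds BRG1 of the BAF remodeling complex. All MEFs carried an Oct4-GFP reporter, came from E13.5 embryos of OG2 males mated with 129 females, and were transduced as a population. The titles of the ESC libraries name ESCs while their other labels name MEFs, and they were grouped by title. Of 10 ESC marker promoters, all 10 had a peak in each ESC library and 4 in MEFs, and of 10 fibroblast promoters 10 had one in MEFs and 6 to 7 in ESC libraries. Day 0 follows both rounds of infection, and in the protocol the cells were later moved from induction medium to ESC medium, so the path of each factor pair also contains this change of medium. Depth is unknown, and the paths had 48843 to 91745 peaks with Nanog and 44126 to 107038 with NanogN70. A region without a peak can therefore be open below the detection limit of its library.

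The NanogN70 day 3 library stood apart from the others. It had a peak at 10 of 10 promoters of T lymphocyte genes and at 8 of 8 of leukocyte genes, whereas the other 15 time course libraries had 2 to 5 and 1 to 4. It also had the highest median pileup, which is the number of tags stacked at a summit, over the 14217 regions open in all 20 libraries (60, where the 15 other time course libraries had 16 to 41). Values without day 3 stand beside the sums and the list counts that this library changed.

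The sequences of 8 distal elements are shown as 201 bases of the plus strand of GRCm38 (mm10) around the summit of the strongest peak. They were chosen after their values were seen. Distances are counted from the summit to the nearest start site, positive in the direction of transcription. Capitals mark matches to the letters searched, which are AP-1 TGANTCA, GC box GGGCGG, SOX CATTGTT, homeobox TAATGG and a 9-letter part of the CTCF consensus AGNNGGCGC, each on either strand.
Gata4 +6.3 kb, intron of Gata4, chr14:63207178-63207378: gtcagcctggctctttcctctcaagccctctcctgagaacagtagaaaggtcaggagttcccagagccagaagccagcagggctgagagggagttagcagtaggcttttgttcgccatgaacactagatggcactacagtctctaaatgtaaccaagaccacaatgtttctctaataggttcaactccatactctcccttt
Foxa2 +4.7 kb, between genes, chr2:148040672-148040872: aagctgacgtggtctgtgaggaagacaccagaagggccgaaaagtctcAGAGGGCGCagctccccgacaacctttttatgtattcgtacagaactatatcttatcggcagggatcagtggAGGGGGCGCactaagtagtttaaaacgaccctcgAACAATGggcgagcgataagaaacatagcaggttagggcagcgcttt
Sox7 +19.2 kb, between genes, chr14:63962754-63962954: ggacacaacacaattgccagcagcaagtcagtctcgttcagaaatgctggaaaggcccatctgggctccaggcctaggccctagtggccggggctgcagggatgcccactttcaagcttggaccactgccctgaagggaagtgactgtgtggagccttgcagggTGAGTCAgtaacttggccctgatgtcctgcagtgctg
T -4.3 kb, between genes, chr17:8430012-8430212: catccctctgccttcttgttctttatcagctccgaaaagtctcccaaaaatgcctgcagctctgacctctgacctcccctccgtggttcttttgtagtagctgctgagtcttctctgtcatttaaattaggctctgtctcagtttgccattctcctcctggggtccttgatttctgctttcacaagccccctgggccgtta
Eomes +18.2 kb, between genes, chr9:118496984-118497184: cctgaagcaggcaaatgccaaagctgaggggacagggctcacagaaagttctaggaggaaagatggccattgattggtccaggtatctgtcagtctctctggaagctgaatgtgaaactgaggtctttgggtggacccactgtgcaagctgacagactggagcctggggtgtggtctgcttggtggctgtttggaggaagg
Gsc +20 kb, between genes, chr12:104453218-104453418: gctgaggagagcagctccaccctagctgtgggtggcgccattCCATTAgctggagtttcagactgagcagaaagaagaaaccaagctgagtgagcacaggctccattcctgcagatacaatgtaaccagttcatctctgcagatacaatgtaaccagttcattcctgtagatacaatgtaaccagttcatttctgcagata
Cdx2 +2.8 kb, intron of Cdx2, chr5:147304408-147304608: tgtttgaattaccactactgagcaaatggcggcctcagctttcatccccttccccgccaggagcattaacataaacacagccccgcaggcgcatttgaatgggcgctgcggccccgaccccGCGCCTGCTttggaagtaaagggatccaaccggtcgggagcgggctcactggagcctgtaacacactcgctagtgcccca
Cdx2 +14.0 kb, between genes, chr5:147293191-147293391: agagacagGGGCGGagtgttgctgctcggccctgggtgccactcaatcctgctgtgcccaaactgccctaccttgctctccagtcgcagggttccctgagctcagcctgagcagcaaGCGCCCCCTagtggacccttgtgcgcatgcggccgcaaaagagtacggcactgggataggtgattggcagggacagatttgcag
The Gata4 element is shown because it was open on more Nanog than NanogN70 days, and the Foxa2 element because it was open on NanogN70 days alone. The Sox7 element was the strongest MEF-only region. The elements of T, Eomes and Gsc were open in ESCs and on no day of either path, the Cdx2 +2.8 kb summit was open in ESCs and on NanogN70 day 10, and Cdx2 +14.0 kb was open in every library. In the Gsc element a stretch of 22 bases, agatacaatgtaaccagttcat, occurs 3 times at a spacing of 28 bases.

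The regions near the lineage genes were first sorted by where they were open in MEFs and ESCs. Shared regions (open in MEFs and in at least 2 of 3 ESC libraries) numbered 21 of 116 (18.1%, against 10.5% of all regions). There were 22 MEF-only regions (19%, against 22.2%) (a peak in MEFs, none in ESCs). There were 27 ESC-only regions (23.3%, against 16.5%), which were open in at least 2 of 3 ESC libraries and not in MEFs. Another 22 regions were open in the time course alone (19%, against 38.7%), and 24 fell in no class. Promoter regions, within 2 kb of a start site, numbered 29, and the other 87 were distal. A peak in 1 library only was found for 50 regions (43.1%, against 41.4% of all regions), and 5 regions were open in all 20 libraries. The highest score of a region, the MACS score by which peaks were called, had a median of 100.5 near these genes and of 109.7 over all regions. These counts describe regions and not independent samples.

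**Figure D1:**
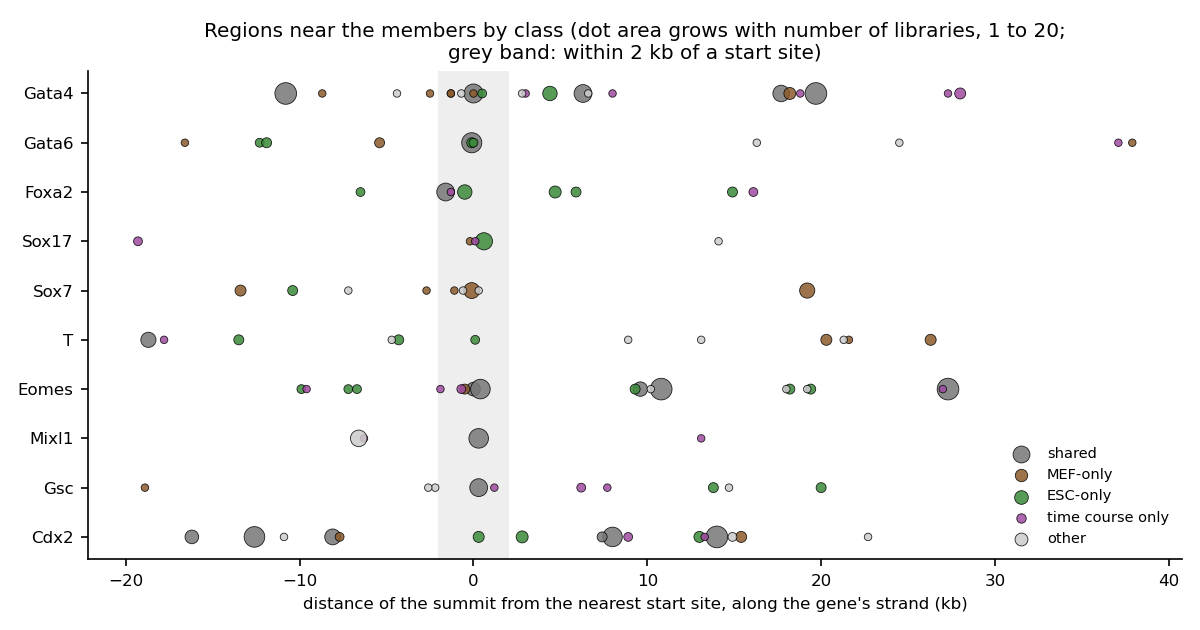
Each dot is one of the 116 regions, placed by the distance of its summit from the nearest start site in kb along the strand of the gene (rows), with its class as colour and its area growing with the number of libraries that had a peak, from 1 to 20. Gata4, Gata6, Foxa2, Eomes, Mixl1 and Gsc have a shared region within 2 kb of a start site, and T and Cdx2 have 1 region each there, which is ESC-only.

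The regions were next counted in each library. MEFs had 45 open (38.8%, where 34% of all 335858 regions were open), the ESC libraries had 49, 63 and 43 (51.67 ± 10.26, SD, n = 3; 37.1 to 54.3%, against 25.8 to 31.6% of all regions), and 55 of the 116 regions were open in no time course library (47.4%, against 30.5% of all regions). With Nanog 20, 14, 13, 24, 25, 19, 16 and 16 regions were open from day 0 to day 12 (11.2 to 21.6%, against 12.2 to 22% of all regions). With NanogN70 24, 15, 23, 19, 30, 17, 20 and 20 were open on the same days (12.9 to 25.9%, against 11.3 to 28.3%). The mean of the daily differences was 2.62 regions more with NanogN70 (SD 4.6 over 8 days, 21 against 18.4), and NanogN70 was higher on 6 of 8 days. Without day 3 the mean difference was 1.57, and with the same number of top-scoring peaks in each library it was 0.75. No p-value is given for this sum over chosen genes. The highest count of both paths was reached on day 7, when these libraries also had the highest share of regions shared by MEFs and ESCs open (83.71% and 85.28%).

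**Figure D2:**
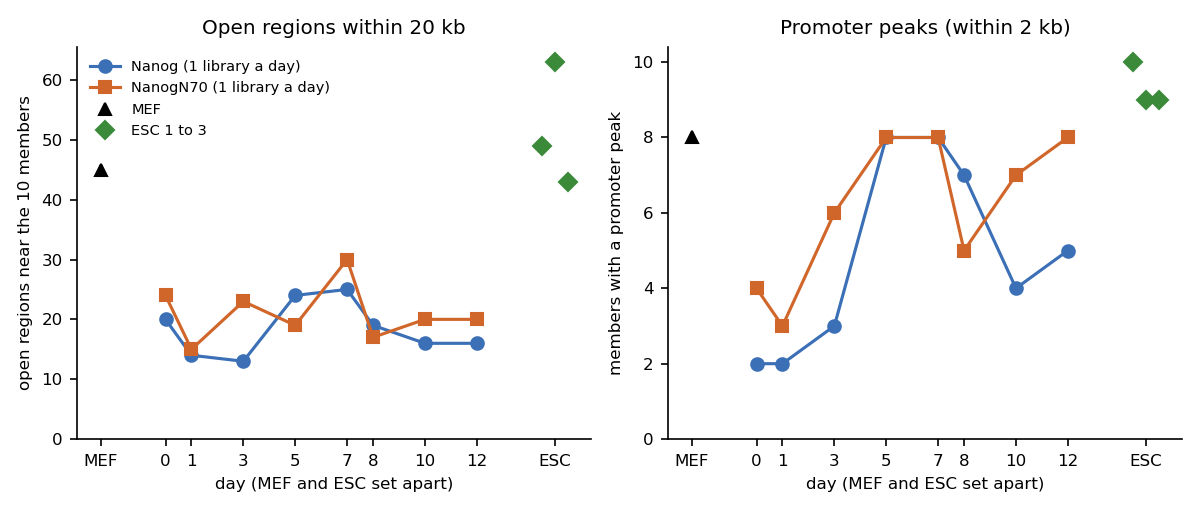
Left, the number of open regions within 20 kb of the 10 genes in each library, by day and path, with MEF and the 3 ESC libraries set apart. Right, the number of the 10 genes with a peak within 2 kb of a start site. All 16 time course libraries lie between 13 and 30 open regions, under the 43 of the lowest ESC library.

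Most of these promoters had a peak in MEFs and in ESCs, at shares near those of all genes. MEFs had a peak within 2 kb of a start site at 8 of the 10 genes (70.3% of all protein-coding genes), and all 3 ESC libraries at 8 (69.6%). T and Cdx2 were the 2 genes with a promoter peak in at least 2 ESC libraries and none in MEFs (5.45% of all genes met this rule). None of the 10 kept a promoter peak on all 8 days with Nanog (55.6% of all genes) or with NanogN70 (56.7%). The number of the 10 genes with a promoter peak was 2, 2, 3, 8, 8, 7, 4 and 5 from day 0 to day 12 with Nanog, where 61.1 to 67.6% of all genes had one. It was 4, 3, 6, 8, 8, 5, 7 and 8 with NanogN70, where 61.9 to 68.4% of all genes had one. Over all pairs of gene and day these were 39 of 80 and 49 of 80, and without day 3 they were 36 and 43. On days 10 and 12 the counts were 9 with Nanog and 15 with NanogN70. The pileups were low. Time course promoter peaks of these genes had 4 to 26 tags with a median of 7, so many lay close to the limit of peak calling. At a minimum score of 100 the pairs fell to 19 with Nanog and 23 with NanogN70.

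Promoter peaks on at least 2 more days with NanogN70 than with Nanog were seen at 3 of the 10 genes (Foxa2, Sox7 and Mixl1; 4.88% of all genes), and the opposite at none (2.5% of all genes). Without day 3, Foxa2 had 6 days with NanogN70 and 3 with Nanog and Sox7 had 5 and 3, while Mixl1 had 6 and 5 and no longer met the rule. At a minimum score of 100 none of the 3 met it, with 2 and 2 days for Foxa2, 2 and 3 for Sox7 and 2 and 2 for Mixl1 (NanogN70 first). At that score Sox17 (4 and 1) and Eomes (5 and 2) met it instead (5.98% of all genes), and Gata6 (4 and 6) met the opposite rule (2.4% of all genes). No promoter peak on any Nanog day was seen at T and Cdx2 (28% of all genes), and on any NanogN70 day at T (25.2% of all genes). Each day is a single library per path, so these counts have no replicate. On the 32 pairs of gene and day with a summit in both paths, the pileup was higher with NanogN70 in 18, equal in 2 and higher with Nanog in 12. After each pileup was divided by the median of its library over the 14217 constant regions, NanogN70 was higher in 15 and Nanog in 17.

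**Figure D3:**
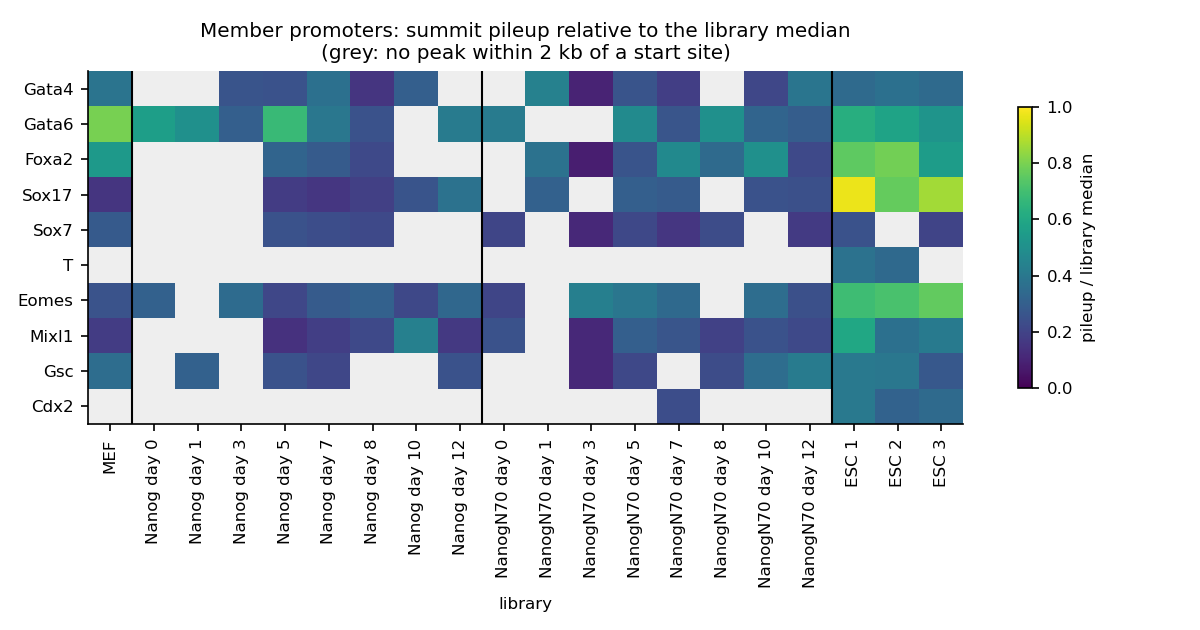
Highest summit pileup within 2 kb of a start site for each gene (rows) in each library (columns), divided by the median pileup of the library over regions open in all 20 libraries; grey means no peak. The highest value in the plot is that of Sox17 in ESC 1 (0.969), and the rows of T and Cdx2 are grey in MEFs and on nearly all days.

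Each gene was next compared between the paths over the 8 days by its number of open regions, by a two-sided exact permutation test that exchanges the paths within days in every possible way. The test was run on 19373 protein-coding genes and adjusted over all of them by the Benjamini-Hochberg method. None passed an adjusted p of 0.05 (0% of genes), and the lowest adjusted p was 0.578. The smallest p this design can give is 0.00781, and 3028 genes would have had to reach it for any to pass, whereas 139 did. At an unadjusted p under 0.05, 5.57% of all genes had more regions with NanogN70 and 0.692% more with Nanog (1080 and 134 genes), and none of the 10 lineage genes was among them. For 8 of the 10 this was fixed by tied days. A p under 0.05 needs at least 6 days on which the paths differ, which 49.3% of the genes tested had and, of the 10, Gata4 and Cdx2 alone, so the test says nothing about the other 8. The days are successive samples of one time course and no biological replicates, so the test speaks only for these libraries.

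**Figure D4:**
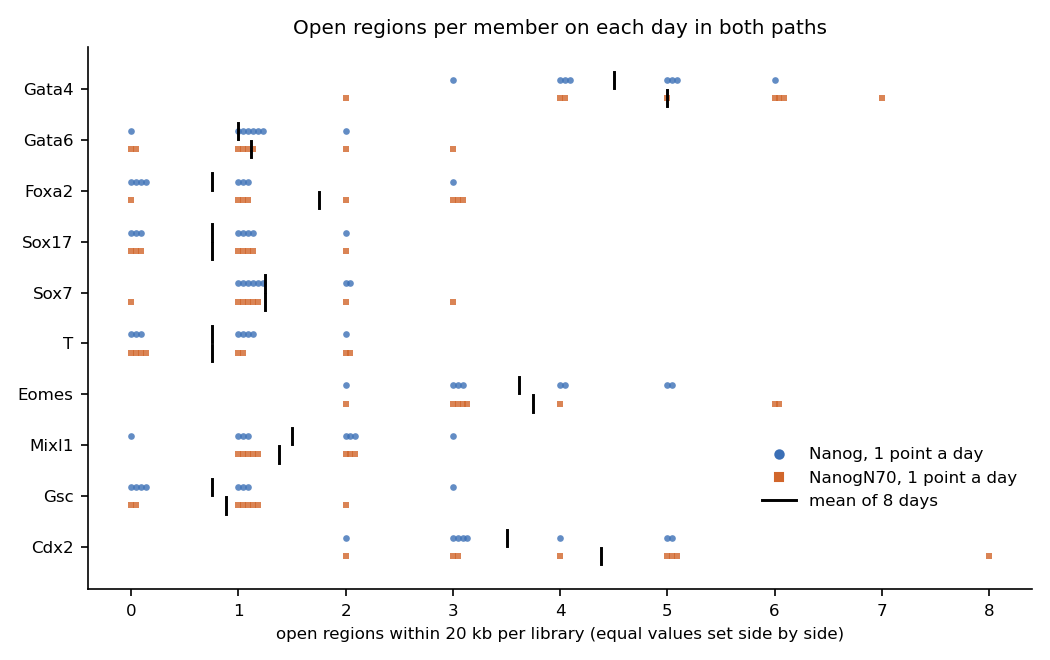
Open regions within 20 kb of each gene in each library, as 1 point per day for Nanog (circles) and NanogN70 (squares), with the mean of 8 days as a black bar. The means of Foxa2 stand 1 region apart (0.75 and 1.75), and the points of both paths overlap for all 10 genes.

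Gata4 (chr14:63198922-63271692, minus strand, 5 start sites), a zinc finger factor of primitive endoderm and heart, had 22 regions, the most of the 10 genes. On average 4.5 were open with Nanog and 5 with NanogN70 (difference 0.5, SD 2.07, exact permutation test, p = 0.609, adjusted p = 1). The difference was 0.14 without day 3 and 1 without day 8. At an internal start site, 26.4 kb inside the gene span, it had a pileup of 15 in MEFs, 11, 14 and 10 in ESCs, and 5 to 14 on 5 Nanog days and 6 to 16 on 6 NanogN70 days. At the start of the gene span MEFs had 2 peaks of 6 tags each, and no ESC or time course library had a peak within 2 kb. Other regions at internal start sites had 10 and 8 tags in 2 ESC libraries (+0.5 kb), 8 tags in 1 ESC library (-0.7 kb) and 6 tags in MEFs (-1.3 kb). The intronic element at +6.3 kb had pileups of 10 in MEFs and of 9, 10 and 11 in ESCs. With Nanog it had 7, 5, 5, 7, none, 7, 5 and 7 tags from day 0 to day 12, whereas NanogN70 had a peak on day 5 (5 tags) and day 12 (11 tags) alone. This was the largest difference in open days in the Nanog direction near these genes, 7 days against 2.

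A Gata4 region at +4.4 kb, whose summit lay in a coding exon, was ESC-only (6, 13 and 8 tags) and was open with Nanog on days 5 and 10 (8 and 4 tags) and with NanogN70 on days 5, 7 and 10 (5, 10 and 7 tags). Regions at -10.8 kb and +19.7 kb were open in all 20 libraries. The second of these lies at the promoter of Neil2, a DNA repair gene next to Gata4, and its signal cannot be assigned to Gata4. Regions at +18.8, +18.2 and +17.7 kb also lie there. They were open on 1, 3 and 4 NanogN70 days and on 0, 1 and 3 Nanog days. In an intron of Neil2, a region at +27.3 kb was open on 1 NanogN70 day and no Nanog day. These regions enter the Gata4 means and test, and their signal cannot be assigned to Gata4 either. In the NanogN70 day 3 library the region at +19.7 kb had 47 tags, above the 5 to 27 of the other time course libraries.

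Gata6 (chr18:11052064-11085635, plus strand), the zinc finger factor that directs primitive endoderm, had 11 regions and nearly equal means (1 with Nanog and 1.12 with NanogN70, exact permutation test, p = 1, adjusted p = 1). Its promoter had 31 tags in MEFs and 20, 22 and 15 in ESCs. With Nanog the promoter had 9, 8, 7, 19, 15, 8, none and 10 tags from day 0 to day 12. With NanogN70 it had 10, none, none, 11, 10, 13, 9 and 12. The promoter was thus open on most days of both paths, on 7 and on 6. Farther inside the gene, in coding exons at other start sites, lay ESC-only regions with a peak in 2 ESC libraries each (chr18:11054718-11055244 and chr18:11058946-11059132). They had 10 and 13 tags at -0.1 kb and 9 and 6 at 0.0 kb from those sites, and the first had 7 tags with NanogN70 on day 7. At -11.9 kb, in an intron of the noncoding gene 1010001N08Rik, an ESC-only region had 15, 18 and 18 tags in ESCs and no peak on any day of either path.

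Foxa2 (chr2:148042877-148046969, minus strand), a forkhead pioneer factor of endoderm, floor plate and notochord, showed the largest difference in mean among the 10 genes, 1.75 open regions with NanogN70 against 0.75 with Nanog (SD of the daily differences 1.07). NanogN70 was higher on 5 days and equal on 3, and with 5 unequal days the p reached was the smallest possible (exact permutation test, p = 0.0625, adjusted p = 0.608). At a minimum score of 100 the difference was 0, and with equal peak numbers it was 0.38. Of its 8 regions 5 were ESC-only, 1 was shared and none was MEF-only. The promoter, defined as any peak within 2 kb, was open on 3 Nanog days and on 7 NanogN70 days.

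The promoter signal of Foxa2 came from 3 regions. At -1.6 kb, a shared region had 21 tags in MEFs and 20, 30 and 16 in ESCs. It had 9, 11 and 7 tags with Nanog on days 5, 7 and 8, and 5, 6, 18, 9, 14 and 9 tags with NanogN70 on days 3 to 12. At -0.5 kb, an ESC-only region had 24, 19 and 15 tags in ESCs, 7 with Nanog on day 7, and 6, 7, 6 and 6 with NanogN70 on days 1, 7, 8 and 12. The third region, at -1.3 kb, had 7 tags with Nanog on day 7 and no peak in any other library. The element at +4.7 kb printed above had 10 tags in each of 2 ESC libraries and none in the third. It was open with NanogN70 on days 7, 8 and 10 (9, 5 and 6 tags) and on no Nanog day, with scores near the minimum (highest 64.77). At -6.5 kb and +5.9 kb the ESC libraries had peaks of 12 and 13 tags in 2 libraries and of 8, 11 and 9 tags in 3, and neither was open on any day.

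Sox17 and Sox7 encode related SOX factors of endoderm and endothelium. Near Sox17 (chr1:4490931-4497354, minus strand) 5 regions were found, and the paths had equal means of 0.75 (exact permutation test, p = 1, adjusted p = 1). The region at +0.6 kb, a merged stretch of 2254 bp, had 31, 29 and 25 tags in ESCs and no peak in MEFs. It was open with Nanog on days 7, 8, 10 and 12 (6, 6, 6 and 9 tags). It was open with NanogN70 on days 1, 5, 7, 10 and 12 (5, 7, 11, 7 and 10 tags). None of these peaks covered the summit of the highest-scoring ESC peak. Their summits lay 564 to 1335 bp from it, so the ESC and time course values come from different places in the region. With a promoter window of 1 kb the days fell from 5 and 5 to 1 with Nanog and 0 with NanogN70, while all 3 ESC libraries kept a peak. The region lies at an internal start site. With the start of the gene span alone, no ESC library had a promoter peak, while MEFs and 1 Nanog day kept one. The MEF promoter peak of Sox17 was another region at -0.2 kb with 6 tags, and a region at +0.1 kb had 5 tags with Nanog on day 5 alone. The distal region at -19.3 kb had 6 tags with Nanog and 5 with NanogN70, both on day 5.

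Sox7 (chr14:63943673-63950732, plus strand) had 9 regions, 5 of them MEF-only, and equal means of 1.25 (exact permutation test, p = 1, adjusted p = 1). Its promoter peaks lay in 4 separate regions. MEFs had 11 tags at -1.1 kb and 8 at -0.1 kb, and 2 ESC libraries had 8 tags at -0.6 kb and 6 at +0.3 kb. The time course peaks were all at -0.1 kb, with 7 to 9 tags on 3 Nanog days and 5 to 7 on 6 NanogN70 days. The ESC-only region at -10.4 kb had 6, 8 and 7 tags and was open on no day. The element at +19.2 kb had the highest score of all 116 regions (1271.48, in MEFs), with 59 tags in MEFs and none in ESCs. With Nanog it kept 14, 7 and 6 tags on days 0, 1 and 3, none on days 5 and 7, and 9, 8 and 6 tags on days 8, 10 and 12. With NanogN70 it had 10 and 9 tags on days 0 and 1 and no peak from day 3 on. An AP-1 match stands in its sequence (capitals above). AP-1 letters were found at 10 of the 22 MEF-only regions near the 10 genes, against 39.1% of all MEF-only regions.

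T (chr17:8434423-8442496, plus strand), the T-box factor of the primitive streak and notochord, was the gene with no promoter peak in any time course library or in MEFs. Its promoter had 12 and 13 tags in 2 ESC libraries and no peak in the third. The region at -4.3 kb was ESC-only with 10, 14 and 12 tags, and that at -13.5 kb had 7, 9 and 10, and neither was open on any day. Away from the promoter, a shared region at -18.7 kb in an intron of T2 was open on 1 Nanog day (day 7, 5 tags) and on 4 NanogN70 days (0, 7, 8 and 12, with 5, 7, 7 and 7 tags). The means of T were equal, 0.75 in both paths (exact permutation test, p = 1, adjusted p = 1).

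Eomes (chr9:118478212-118486132, plus strand), a T-box factor of mesendoderm and trophoblast that is also known from cytotoxic lymphocytes, had 19 regions, 6 of them ESC-only. On average 3.62 were open with Nanog and 3.75 with NanogN70 (exact permutation test, p = 1, adjusted p = 1), and without day 3 the difference was -0.29. The promoter had 10 tags in MEFs, 22, 27 and 22 in ESCs, 5 to 11 on 7 Nanog days and 5 to 26 on 6 NanogN70 days, as the highest value of 5 promoter regions. Apart from the region at +0.4 kb, these had 8 and 9 tags in MEFs, 12 and 14 in 2 ESC libraries, 6 to 9 on Nanog days 5, 7 and 8, and 7 on NanogN70 days 7 and 10. The value of 26 was that of the NanogN70 day 3 library, where regions at the promoter also had 12 and 20 tags. Relative to the library median the Eomes promoter was at 0.433 there, and at 0.208 to 0.391 in the 12 other time course libraries with a peak. The promoters of the 5 other genes with a peak in that library were at 0.083 to 0.117. The lymphocyte promoter peaks of that library are given above, and their part in these Eomes values was not tested.

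Downstream of Eomes the ESC-only regions at +18.2 kb (23, 19 and 23 tags) and +19.4 kb (17, 20 and 16 tags) were open on no day. The region at +10.8 kb was open in all 20 libraries, with 21 tags in MEFs, 16, 26 and 22 in ESCs, 7 to 18 with Nanog and 7 to 61 with NanogN70, where 61 was day 3 and the next highest value was 16. The region at +27.3 kb, also open in all libraries, lies at the promoter of Golga4, which encodes a golgin of the trans-Golgi network. Strong ESC-only elements and constant elements thus lay a few kb apart. The constant elements were named for being open in all libraries, and that at +19.4 kb after its values were seen. Their different values in the time course therefore follow in part from this choice.

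Mixl1 and Gsc encode homeobox factors of the primitive streak and the organizer. The Mixl1 promoter (gene chr1:180693043-180697034, minus strand) had 7 tags in MEFs and 19, 14 and 12 in ESCs. With Nanog it was open from day 5 to day 12 (4, 7, 7, 10 and 4 tags). With NanogN70 it was open on every day except day 1 (6, 7, 7, 10, 5, 7 and 9 tags). Mixl1 had 4 regions, and the means were 1.5 with Nanog and 1.38 with NanogN70 (exact permutation test, p = 1, adjusted p = 1). Its distal region at -6.6 kb had 19 tags in MEFs and 7 in 1 ESC library, and was open on days 0, 3, 5, 7 and 8 with Nanog and on days 0, 1, 3 and 7 with NanogN70, so neither path had a peak there on days 10 and 12.

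Gsc (chr12:104471209-104473330, minus strand) had a promoter peak of 14 tags in MEFs and of 13, 15 and 8 in ESCs. With Nanog the promoter had 5, 7, 8 and 6 tags on days 1, 5, 7 and 12. With NanogN70 it had 7, 5, 6, 10 and 17 tags on days 3, 5, 8, 10 and 12, and the last value is above those of MEFs and ESCs in tags and, at 0.415 of the library median, also above theirs of 0.276 to 0.406. A promoter region at +1.2 kb had 8 tags with Nanog on day 7 alone. The element at +20 kb was the strongest distal ESC-only element of the 10 genes, with 34, 31 and 28 tags and a mean ESC score of 702.5, and it had no peak in MEFs or on any day of either path. The mean number of open regions was 0.75 with Nanog and 0.88 with NanogN70 (exact permutation test, p = 1, adjusted p = 1).

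Cdx2 (chr5:147300805-147307270, minus strand), a caudal-type homeobox gene, had 16 regions. On average 3.5 were open with Nanog and 4.38 with NanogN70, with NanogN70 higher on 5 days, and the difference did not pass (0.88, SD 1.89, exact permutation test, p = 0.312, adjusted p = 0.901). It was 0.43 without day 7 and 1.29 without day 5. The promoter had 13, 12 and 10 tags in ESCs, none in MEFs and none with Nanog, and 9 tags with NanogN70 on day 7. The intronic element at +2.8 kb had 23, 29 and 20 tags in ESCs and 8 and 7 with NanogN70 on days 7 and 10. The element at +13.0 kb had 20, 25 and 24 tags in ESCs and 7 with NanogN70 on day 10. With Nanog none of these 3 regions had a peak on any day. Of these NanogN70 peaks, both on day 10 covered the summit of the highest-scoring ESC peak, while those on day 7 at the promoter and at +2.8 kb had their summits 274 and 565 bp from it. The region at +14.0 kb was open in all 20 libraries with 21 tags in MEFs, 32, 38 and 32 in ESCs, 6 to 18 with Nanog and 7 to 20 with NanogN70. The shared region at +8.0 kb had the highest ESC pileups of the 16 regions (42, 40 and 53 tags). It was open on 7 Nanog days and on 5 NanogN70 days. Regions at -8.1 and -12.6 kb, in an exon and an intron of Urad, were open on 2 and 6 Nanog days and on 4 and 8 NanogN70 days. They enter the Cdx2 means as well.

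Over the 10 genes, 3 of the 27 ESC-only regions were open on at least 1 Nanog day (11.1%, against 17.3% of all ESC-only regions) and 8 on at least 1 NanogN70 day (29.6%, against 30.8%). The 3 regions, at Gata4, Foxa2 and Sox17, were among the 8. The other 5 were at Gata6, Foxa2 and, for 3 of them, at Cdx2. On NanogN70 day 7 alone 7 of the 27 were open, and without day 7 the count over the other days was 6 for NanogN70 and 2 for Nanog. Of the 8 ESC-only regions with a peak in all 3 ESC libraries and a mean of at least 15 tags, 2 were open on a Nanog day (25%, against 25% of all such regions) and 4 on a NanogN70 day (50%, against 52.6%). The shares near these genes were thus close to or below those of the genome in both paths, and 19 of the 27 were open on no day of either path (70.4%, against 66.1% of all ESC-only regions). When a time course peak had to cover the summit of the highest-scoring ESC peak, 1 of the 27 was open with Nanog (15% of all ESC-only regions) and 6 with NanogN70 (28.2%).

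**Figure D5:**
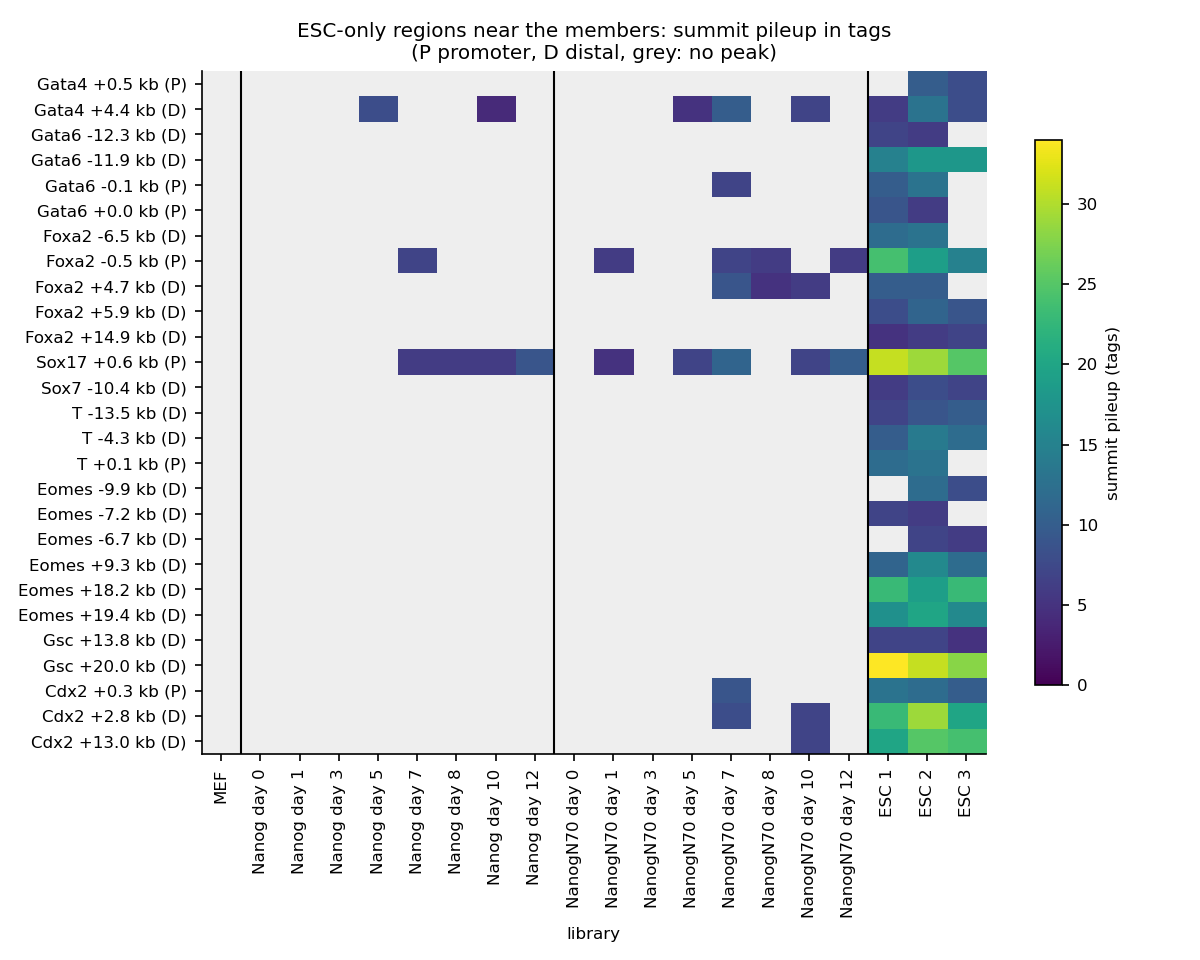
Summit pileup in tags of the 27 ESC-only regions (rows, named by gene and distance, P for promoter and D for distal) in all 20 libraries (columns); grey means no peak. Peaks of the time course lie at 3 regions with Nanog and at 8 with NanogN70, mostly from day 5 on, while the Gsc +20 kb and Eomes rows are filled in the ESC libraries alone.

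Most MEF-only regions near these genes had no peak on day 12 in either path. At least 1 Nanog day was open at 9 of 22 (40.9%, against 45.4% of all MEF-only regions) and at least 1 NanogN70 day at 10 of 22 (45.5%, against 44.5%). On day 12, 2 were open with Nanog (6.52% of all MEF-only regions) and 1 with NanogN70 (4.17%). Shared regions near these genes were open on all 8 days at 5 of 21 with Nanog (23.8%, against 45.1% of all shared regions) and at 6 of 21 with NanogN70 (28.6%, against 47.2%).

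The letters of known binding motifs were searched in the 201 bases around each summit. GC boxes were found in 18 of the 116 regions (15.5%, against 8.52% of all regions), AP-1 letters in 13 (11.2%, against 17.3%) and the CTCF letters in 12 (10.3%, against 2.99%). Most windows with CTCF letters lay near Cdx2 (+22.7, +14.9, +14.0, +13.0, +8.0, +2.8 and -10.9 kb), and the others near Foxa2, Sox17 and Gsc. OCT letters (ATGCAAAT) were in 1 region (0.862%, against 2.65%), SOX letters in 4 (3.45%, against 3.75%), GATA letters (AGATAA) in 5 (4.31%, against 8.8%), FOX letters (TGTTTAC) in 3 (2.59%, against 2.76%), T-box letters (AGGTGTGA) in 1 (0.862%, against 0.781%), TEAD letters (ACATTCC) in 8 (6.9%, against 5.21%) and homeobox letters in 6 (5.17%, against 8.52%). The windows near these genes had a median GC content of 52.7%, against 47.8% over all regions. None of the 27 ESC-only windows held OCT, FOX, GATA, T-box or AP-1 letters, against 2.78, 3.12, 7.13, 1.18 and 6.21% of all ESC-only windows. At such shares few matches are expected in 27 windows, so these absences say little. GC box and CTCF letters can share bases, and a match is no evidence of binding.

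Other genes of the same lineages were counted from lists of known regulators. Of 11 endoderm genes (such as Foxa1, Hnf4a and Hhex), 7 had a promoter peak in MEFs, 8 on some Nanog day and 9 on some NanogN70 day. Of all protein-coding genes 70.3% had one in MEFs, while 28% had none on any Nanog day and 25.2% none on any NanogN70 day. None of the 11 endoderm genes passed the adjusted test of open regions, and 1 of the 6 with enough unequal days had an unadjusted p under 0.05 in the NanogN70 direction and none in the other (11.3% and 1.4% of all genes with enough unequal days). The median difference was 0.375 regions, and 0.286 without day 3. Gata5, a GATA factor of endoderm and heart, had a promoter peak on days 7, 8, 10 and 12 with NanogN70 and on no Nanog day (difference in open regions 1.62, exact permutation test, p = 0.0156, adjusted p = 0.578, and without day 3 p = 0.0312). Onecut1, a liver factor, had 8 Nanog and 6 NanogN70 days, and 7 and 6 without day 3. Sox18, a SOX factor of endothelium, had 1 and 3, and 1 and 2 without day 3.

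Of 18 mesoderm genes, 17 had a promoter peak in MEFs, 15 on some Nanog day and 18 on some NanogN70 day, 17 without day 3, and 2 of the 10 with enough unequal days had an unadjusted p under 0.05 with NanogN70 higher (against 11.3% of all such genes), with a median difference of 0.25. Without day 3 this was 1 gene, with a median difference of 0.143. Wnt3, a signal of the early primitive streak, had a promoter peak on 1 Nanog day and 5 NanogN70 days, of which 1 was day 3 (difference 2.5, exact permutation test, p = 0.0391, adjusted p = 0.608). With day 3 left out, the days of Wnt3 were 1 and 4 and the unadjusted p was above 0.05 (difference 2.57, exact permutation test, p = 0.0625, adjusted p = 0.889). Hand2, a factor of heart and limb, had 4 and 7 days, and Foxf1, a factor of lateral mesoderm, 7 and 4. Of 14 trophoblast genes, 13 had a promoter peak in MEFs, 13 on some Nanog day and 12 on some NanogN70 day. Their median difference was 0.562 regions, and 0.357 without day 3. Of the 7 with enough unequal days, 1 had an unadjusted p under 0.05 (against 11.3%). This was Tfap2a, an AP-2 factor, with 6 and 8 promoter days and 2 more open regions with NanogN70 (exact permutation test, adjusted p = 0.578), and its unadjusted p of 0.00781 was the smallest that the test can give. Esx1, a placental homeobox gene, had 4 and 6 days, and 4 and 5 without day 3. No gene of the 3 lists passed the adjusted threshold.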

How the data were processed

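ATAC-seq libraries of MEFs, ESCs and both reprogramming paths were analysed as peak lists. The authors trimmed reads with Trim Galore 0.6.4, aligned them with Bowtie2 2.4.5 to mm10, filtered them with SAMtools 1.16.1 (repetitive, low-quality and mitochondrial reads removed) and called peaks with MACS 1.4.2 in each library separately, without a control and keeping duplicates. The score that the authors deposited with each peak is the MACS p-value as -10 log10(p), and the lowest in the files was 50. The signal that the authors deposited with a summit is the coverage there (pileup) in tags, not scaled to depth. Depth is not given in the sources used here, and deeper libraries yield more peaks.

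Peaks of the 20 libraries were merged on overlap (Python 3.11.15, numpy, pandas). Another 525 peaks on sequences with no matching name were not used. Genes and start sites came from GENCODE M21 and sequence from GRCm38, and on all 21 chromosomes the last peak lay inside the reference. Groups came from sample titles. The sign-flip test was tested on simulated data. Alternatives were a minimum score of 100, windows of 10 and 50 kb, equal peak numbers, scaled counts, other class and promoter rules and leaving out days or ESC libraries.

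The members and lists were chosen with earlier results of these data known. Named were, for each gene, its promoter regions, the distal region open in the most libraries, the one with the largest difference in open days (at least 3), and the ESC-only distal region of highest mean ESC score; for the lists, up to 3 genes with the largest difference in promoter days. Other regions, such as Foxa2 +5.9 kb, Eomes +19.4 kb, T -13.5 kb and Cdx2 +2.8 kb, were chosen after their values were seen. The endoderm list was counted without 1 gene, which is not reported here.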

Additional observations from a re-analysis of the deposited data

How the results depend on the processing

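The count of genes past the adjusted threshold was 0 under every alternative run, while unadjusted p under 0.05 was reached by 608 to 2158 genes. The mean difference in open regions near the 10 genes kept its sign. It was 2.62, rose to 7 with a 50 kb window, fell to 0.75 with equal peak numbers, and without single days lay between 1.57 (without day 3) and 3.71 (without day 5). Differences of single genes near 0 changed sign. Eomes was at -0.25 with the 50 kb window, -0.01 with scaled counts and -0.29 without day 3, with 0.43 as its highest value without a single day. Mixl1 was at 0.25 with the 50 kb window, 0.14 without day 5 and 0.12 at a minimum score of 100. Gata6 was at -0.25 at that score and with equal peak numbers, and Gsc at -0.14 without day 8 and at up to 0.43 without another day. Cdx2 kept its sign under every alternative run, Gata4 was at 0 with the 50 kb window and Foxa2 at 0 at a minimum score of 100, and Sox17, Sox7 and T, at 0, moved to 0.88, 0.62 and 1.5 with the 50 kb window and to 0.38, -0.5 and -0.25 with equal peak numbers. With the 50 kb window Gsc alone had an unadjusted p under 0.05 (difference 1.75, exact permutation test, p = 0.0312, adjusted p = 0.414).

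ESC-only regions near the genes numbered 17 when a peak in all 3 ESC libraries was required, 49 with any ESC library, and 17 to 24 without 1 ESC library. At a minimum score of 100 there were 13 shared, 13 MEF-only and 7 time course only regions, and promoter peaks numbered 19 pairs of gene and day with Nanog and 23 with NanogN70. ESC-only regions open on at least 1 day numbered 2 to 3 with Nanog and 6 to 8 with NanogN70 when single days were left out, an alternative added after the values were seen, as were the list counts without day 3, the rule that a peak covers the ESC summit (1 with Nanog and 6 with NanogN70), the search for CTCF letters and the class of strong ESC-only regions. Unknown depth and 1 library per day limit all comparisons of the paths.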

Other observations

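Near these genes 22 regions were seen in the time course alone. They had a median highest score of 68.1 (82.8 over all such regions) and 16 of them had a peak in a single library (72.7%, against 58.1%). The strongest lay 28.0 kb from the nearest Gata4 start site (chr14:63185424-63185796, in an intron of Neil2, highest score 239.11). It had 5 and 5 tags with Nanog on days 0 and 1, 10 and 11 tags with NanogN70 on the same days, and no peak in MEFs, in ESCs or on any later day. It was chosen after its values were seen, and no test was run on it. Near Cdx2 a region at +8.9 kb had 6 and 8 tags with NanogN70 on days 5 and 7 and no peak in any other library, and near Gsc a region at +6.2 kb had 6 and 6 tags with NanogN70 on days 7 and 8 alone.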
